A study of Rattus norvegicus with 2 samples.

Results

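The microRNAs (miRNAs) miR-132 and miR-212 are processed from neighbouring hairpins of 1 primary transcript, and they were taken here as the 2 rows named rno-miR-132 and rno-miR-212 among 350 rat miRNAs on the arrays. The pair was chosen by its values on these same arrays, because the members differed in detection and in ratio, so that difference is given as a description and no test is attached to it. RNA of a carotid artery collected 10 days after balloon injury was compared with RNA of a carotid artery that was not injured, both from male Sprague-Dawley rats of about 250 g. Balloon injury denudes the inner lining of the vessel and stretches its wall, and the smooth muscle cells of the wall then multiply. Each group held 1 array, so no value below has a replicate error, and precision is limited by having 1 array a group. The number of rats behind each RNA sample is not stated in the labels.

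In neurons, transcription of the miR-132 and miR-212 locus is driven by CREB, the factor activated by cyclic AMP and calcium signals, and both miRNAs are known there for shaping dendrites and synapses. In endothelial cells miR-132 represses p120RasGAP (Rasa1), a brake on Ras, and it is linked to vessel growth. In cultured rat vascular smooth muscle cells, angiotensin II raises miR-132 and miR-212, and miR-132 is known to repress Rasa1 and Lrrfip1. Because a miRNA finds its targets mainly through its seed, bases 2 to 8, the pair is held to share most targets.

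The mature 3p sequences are shown because the shared seed defines the pair and the bases after it are what a probe must use to separate them. The seed is in capitals, and the sequences are those of RefSeq on the GRCr8 build.
miR-132-3p: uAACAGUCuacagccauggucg
miR-212-3p: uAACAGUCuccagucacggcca
Both lie on the plus strand of chromosome 10, miR-212-3p at chr10:60521811-60521832 and miR-132-3p at chr10:60522091-60522112, each in the 3′ arm of a non-coding hairpin. The first 9 bases were identical, and 17 of 22 positions matched. Counted from 1 at the 5′ end, with the base of miR-132-3p first, the differences were A10C, C14U, U17C, U20C and G22A. The GC content was 50.0% for miR-132-3p and 54.5% for miR-212-3p. Among 694 mature rat miRNAs in the RefSeq table, these 2 were the only ones with the seed at bases 2 to 8, so no further seed relative could be looked for on the arrays.

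The 5p arms of the same hairpins are shown because they do not carry that seed, again with bases 2 to 8 in capitals.
miR-132-5p: aCCGUGGCuuucgauuguuacu
miR-212-5p: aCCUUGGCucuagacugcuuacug
The array files name the features miR-132 and miR-212 without an arm. In the older naming of miRNAs those names stand for the 3p strands, and the arrays used here had no row for a 5p or star strand of either hairpin. The Mir132 hairpin of 101 bases, chr10:60522033-60522133, shows where the 3p strand (in capitals) sits, at bases 59 to 80, opposite the 5p strand at bases 23 to 44.
Mir132: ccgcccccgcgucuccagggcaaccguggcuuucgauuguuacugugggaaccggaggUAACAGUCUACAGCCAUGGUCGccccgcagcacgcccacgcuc
On the genome 222 bases separate the end of miR-212-3p from the start of miR-132-5p, with Mir212 first. In the order of RefSeq genes the pair stands between Hic1, a transcriptional repressor, and Ovca2.

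miR-132 was detected in the injured artery and not in the uninjured one, whereas miR-212 was detected in both at like signal. miR-132 had a signal of 17.8 with a detection flag of 1 on the injured array, against 0.711 with a flag of 0 on the uninjured array. The deposited signals are linear intensities, and the flag is read as detection (1) or no detection (0). The injured signal of miR-132 was 2.98 times the highest signal of any undetected miRNA on its array (5.98) and 3.62 times that array's highest negative control (4.92). Its uninjured signal lay under the lowest negative control of that array (1.33) and was 1 of 27 signals listed under 1, so it holds no level. miR-212 had a signal of 162 on the injured array, against 129 on the uninjured array, both with a flag of 1. In a whole vessel wall, more cells that carry a miRNA and more of it per cell cannot be told apart.

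**Figure D1:**
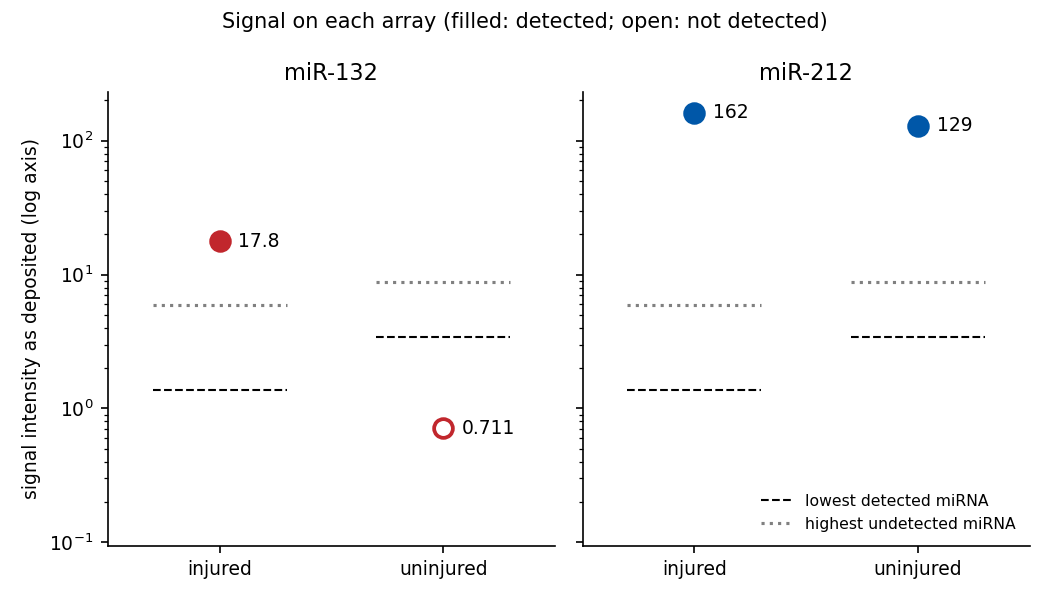
Deposited signal intensity (log axis) of miR-132 and miR-212 on the injured and the uninjured array, 1 array each; filled points were detected, the open point was not, and lines give the lowest detected and the highest undetected miRNA of each array. miR-132 stands at 17.8 on the injured array, above both lines, and at 0.711 on the uninjured array, below both, while miR-212 (162 and 129) is above the lines on both arrays.

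The ratio of miR-132 can only be given as a bound. Signals were put on the log2 scale and the arrays were aligned at the 75th percentile of the 158 miRNAs (45.1% of 350) that both of them measured, and log2 ratios are injured minus uninjured. Against the lowest detected signal of the uninjured array (3.43), miR-132 was at least 5.51-fold higher in the injured artery, a log2 bound of 2.46. That floor is lenient, because 11 detected miRNAs of that array lay at or under its highest undetected signal of 8.84. Against 8.84 the bound was at least 2.14-fold, a log2 ratio of 1.10. Measurement only on the injured array was seen for 26 of the 350 miRNAs, or 7.43%, and miR-132 is among them by the choice of the pair. Only on the uninjured array were 8 measured, or 2.29%.

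The ratio of miR-212 was small, and its direction depended on the scaling. It was 1.33-fold higher in the injured artery, a log2 ratio of 0.415, below the descriptive threshold of 2-fold that 12.7% of the 158 miRNAs measured on both arrays passed upward and 3.8% downward. Those shares stand for 20 higher and 6 lower miRNAs, and the balance turned to 7 higher and 23 lower with the control features aligned. The median log2 ratio of those 158 was 0.14, with quartiles of -0.14 and 0.58, so miR-212 lay inside the middle of the distribution, at rank 55 from the highest. The log2 ratio was 0.33 without scaling and 0.07 with quantile normalization, but it turned to -0.03 with the arrays aligned at their medians, -0.08 at the 75th percentile of all miRNAs and -0.18 at the control features. Those 5 scalings moved the median of the 158 by -0.09, -0.30, -0.44, -0.50 and -0.59, in the same order. Quantile normalization, the only one of these that can reorder miRNAs, placed it at rank 57.

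**Figure D2:**
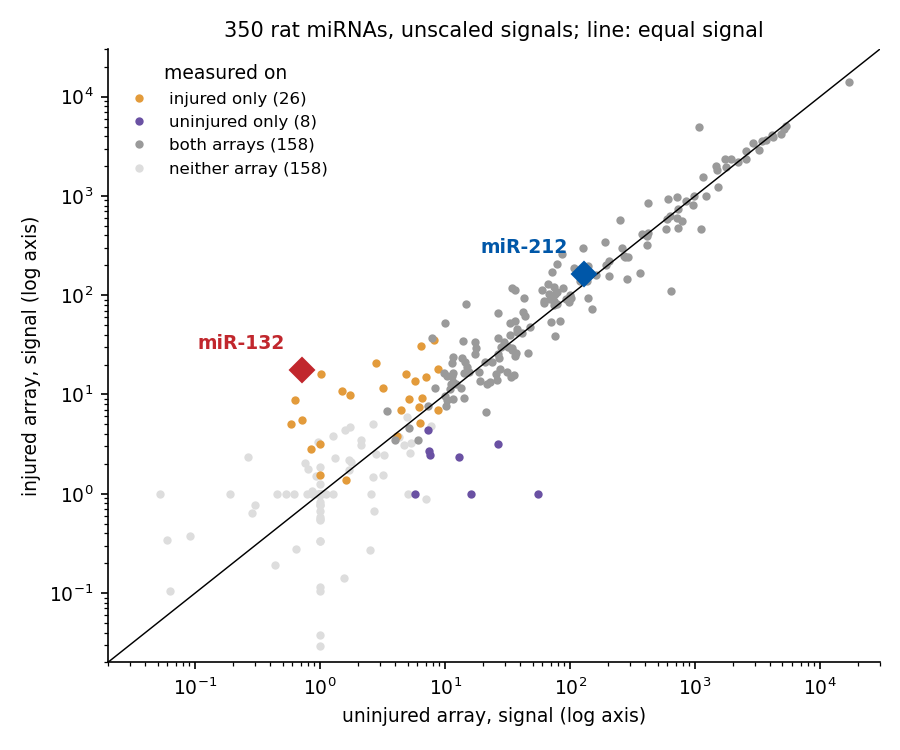
Signals of all 350 miRNAs on the injured array (vertical, log axis) against the uninjured array (horizontal, log axis), coloured by the arrays on which they were measured, with the line of equal signal and without scaling. miR-212 lies close to the line among the 158 miRNAs measured on both arrays, and miR-132 lies far above it among the 26 measured only on the injured array, at an uninjured signal of 0.711.

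Within the cluster the 2 members thus had unequal ratios on these arrays. The bound of miR-132 exceeded the ratio of miR-212 by 2.05 on the log2 scale, or 4.13-fold, and this gap does not depend on a scaling that moves each array by 1 factor. With quantile normalization it was 2.19. Against the highest undetected signal it was 0.68, or 1.60-fold. On the injured array miR-132 ranked 131 of 184 detected miRNAs and took 0.0183% of the summed miRNA signal, while miR-212 ranked 58 and took 0.166%. On the uninjured array miR-212 ranked 60 of 166 and took 0.135%. In mouse brain miR-132 is generally the more abundant of the pair, but signals of different probes do not give an order of abundance. The array files do not state the probe sequences. Whether the 2 features separate the miRNAs was not tested.

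**Figure D3:**
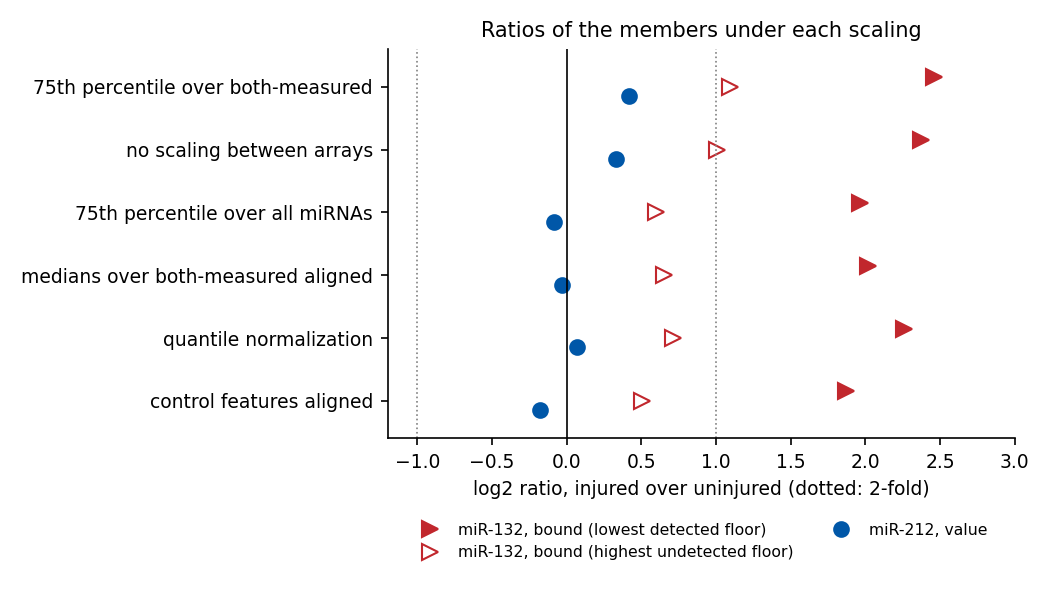
Log2 ratio, injured over uninjured (horizontal), of miR-132 as a bound against each floor (triangles) and of miR-212 as a value (circles), under 6 scalings, 1 array per group; dotted lines mark 2-fold. The miR-132 bound runs from 1.87 to 2.46 against the lowest detected signal and from 0.505 to 1.10 against the highest undetected signal, and miR-212 lies from -0.18 to 0.415, on both sides of 0.

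The deposited value table lists miR-132 at a ratio of 25.0, which is the highest of the 349 names it shares with the arrays, and miR-212 at 1.25, at rank 100. In that table the ratio is the injured signal over the uninjured one, without a floor, so for miR-132 it is the 17.8 of a detected signal over the 0.711 of an undetected one. A ratio of 10 or more was listed for 4 names, or 1.15%. None of the 4 was measured on both arrays. They were miR-132, miR-503 and miR-34c, each measured only on the injured array, and miR-30d*, measured on neither, the last named after its value was seen. The highest deposited ratio among miRNAs measured on both arrays was 5.57, that of miR-146b.

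Among the 26 miRNAs measured only on the injured array, miR-132 was at rank 5 by injured signal, and at rank 2 by its bound after miR-34b (at least 6.47-fold), or rank 5 against the highest undetected signal. Injured signals of the 26 ran from 1.36 to 35.4, with a median of 9.07. The flag is not a plain cut on signal, since on each array 11 detected miRNAs lay at or under its highest undetected signal. Of the 26, 4 had the lower deposited signal on the injured array. The bound was 2-fold or more for 13 of the 26 against the lowest detected signal and for 5 against the highest undetected one, and miR-132 was in both groups. Its place among the 5 depended on the scaling. Its bound there was 1.64-fold with quantile normalization and 1.42-fold at the control features, and also under 2-fold at the medians and the 75th percentile of all miRNAs. Another 59 miRNAs were detected on the injured array within 2-fold of the signal of miR-132. Of these, 46 were measured on both arrays, with a median log2 ratio of 0.07 and 3 of them (6.52%) at least 2-fold higher, and 13, or 22.0%, only on the injured one. At the signal of miR-212 all 42 such miRNAs were measured on both arrays, with a median log2 ratio of 0.41, and 9 of them (21.4%) were at least 2-fold higher.

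**Figure D4:**
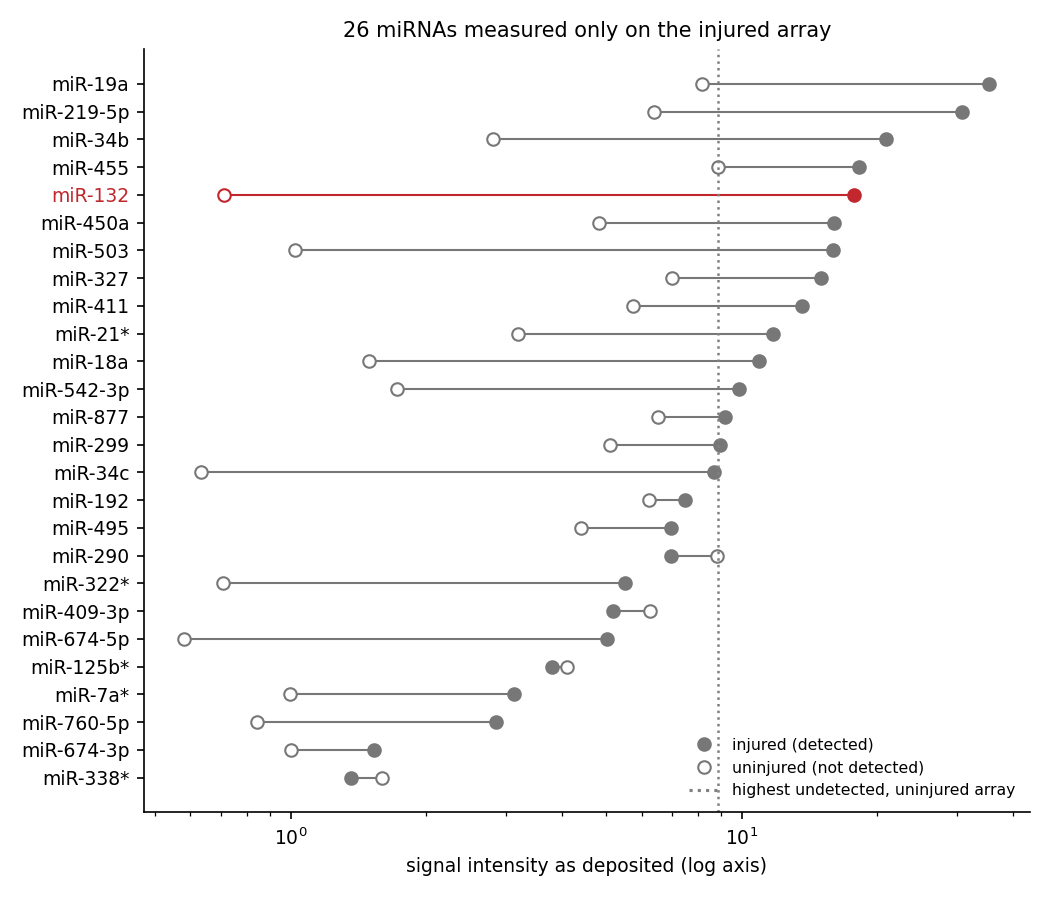
Deposited signals (log axis) of the 26 miRNAs measured only on the injured array, ordered by injured signal; filled points are the injured array, open points the uninjured array, and the dotted line is the highest undetected signal of the uninjured array (8.84). miR-132, in red, has the fifth highest injured signal, and its uninjured signal of 0.711 is among the lowest.

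The miRNAs most like miR-132, by distance between the pairs of log2 signals among the same 26, were miR-503, miR-34c, miR-18a, miR-542-3p and miR-322*. miR-503 was nearest, at a log2 distance of 0.551, with signals of 15.9 on the injured array and 1.02 on the uninjured array. It is made from a cluster that also holds miR-542-3p and miR-322*, so 3 of the 5 share 1 locus. miR-542-3p had 9.85 on the injured array, against 1.72 on the uninjured array. miR-34c, a p53-responsive miRNA, had 8.70 against 0.634, and miR-18a of the miR-17-92 cluster had 10.95 against 1.49. The distance also used the undetected uninjured signals as deposited, although signals near 1 hold no level, so the list depends in part on them. miR-322*, for example, had 5.51 on the injured array and an undetected 0.709 on the uninjured array. By injured signal alone, miR-455 (18.2) and miR-450a (16.0) were closer to miR-132 than miR-503 was. For miR-212 the 5 nearest were miR-151, miR-98 of the let-7 family, miR-34a, miR-320 and miR-324-3p, with log2 ratios from 0.117 to 0.595; those of miR-151, miR-98 and miR-320 were negative under 4 of the other scalings, and that of miR-324-3p was -0.003 with the control features aligned.

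The nearest other miRNA gene with features on the arrays is Mir22, on the same chromosome. miR-22 had signals of 3412 on the injured array and 2888 on the uninjured array, a log2 ratio of 0.33. miR-22* had 25.5 against 26.3, a log2 ratio of 0.04. Both stayed under 2-fold, like miR-212, and both ratios were negative when the arrays were aligned at their medians, at the control features or at the 75th percentile of every miRNA; that of miR-22* was also -0.05 without scaling.

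Other miRNAs linked to CREB or to neuronal activity did not share 1 pattern. Of 6 such miRNAs outside the cluster, miR-34b, known to repress CREB in leukaemia cells, and its clustered partner miR-34c, both of them p53-responsive, were measured only in the injured artery. miR-34b had a signal of 20.9 on the injured array, against an undetected 2.81 on the uninjured array. miR-9 and miR-9*, the arms of a neuronal hairpin, were measured only in the uninjured artery, with undetected signals of 2.69 and 2.37 on the injured array and detected signals of 7.43 and 12.9 on the uninjured array. The 7.43 of miR-9 lay under the highest undetected signal of its array (8.84). Against the other array's highest undetected signal, the log2 bounds were 1.328 for miR-34b, 0.064 for miR-34c, -0.227 for miR-9 and -1.018 for miR-9*. miR-134, a miRNA of dendrites, had 16.8 against 18.6, a log2 ratio of -0.06, and miR-184 was measured on neither array.

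In the list of miRNAs that respond to growth factors or vessel injury, 8 of 9 on the arrays were measured on both, with a median log2 ratio of 1.15, against 0.14 for all 158. The lists were chosen with earlier results of these data known, this one included. Its median is therefore set beside that of all 158 as a description only. Of the 8, 5 were at least 2-fold higher and none at least 2-fold lower, against 12.7% higher and 3.8% lower among all 158. With the control features aligned 2 of the 8 were higher, and their median was 0.56. In that setting 7 of the 158 were higher and 23 lower. It moves every log2 ratio by the same -0.59, so the distance between the 2 medians stays as it was. The 8 include miR-221 and miR-222, a clustered pair like miR-132 and miR-212, with log2 ratios of 1.47 and 1.02. Both members of that pair were thus measured in both arteries and passed 2-fold in the same direction. miR-222 did so only with the scaling used here, and miR-221 was under 2-fold with the control features or the 75th percentile of every miRNA aligned. miR-21* is the member measured only in the injured artery, with 11.8 on the injured array, against an undetected 3.20 on the uninjured array.

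Both members are also expressed outside the vessel wall's own cells, and the lists of other cell types differed between the arrays. All 6 leukocyte miRNAs on the arrays were measured on both. Of these, 3 were at least 2-fold higher and none at least 2-fold lower, against 12.7% higher and 3.8% lower among all 158. The 3 were miR-223 and both arms of the miR-142 hairpin, miR-142-3p and miR-142-5p. The other log2 ratios were 0.775 for miR-146a, also in the injury list, 0.189 for miR-342-3p and -0.503 for miR-150. With the control features aligned miR-150 was at least 2-fold lower, and the log2 ratio of miR-342-3p was -0.402. The leukocyte miRNAs summed to 635.5 on the injured array, against 315.6 on the uninjured array. Of 11 nerve miRNAs, 6 were measured only in the uninjured artery, 1 only in the injured artery, 2 on both arrays and 2 on neither, where the shares of all 350 miRNAs were 2.29% only in the uninjured artery, 7.43% only in the injured artery and 45.1% on both. Of the 6, miR-9 (7.43) and miR-129* (5.77) lay under the highest undetected signal of the uninjured array (8.84). The summed signal of the 11 was 231.4 on the injured array, against 448.4 on the uninjured array. Most of both sums was miR-338, with 147.2 on the injured array and 282.7 on the uninjured array, a log2 ratio of -0.853. miR-124, which defines neurons, was listed at exactly 1 and undetected on the injured array, against a detected 16.2 on the uninjured array. miR-219-5p, which is abundant in oligodendrocytes, had a detected 30.9 on the injured array, against an undetected 6.41 on the uninjured array. The smooth muscle miRNAs miR-143 and miR-145 and the endothelial miR-126 and miR-126* were detected on both arrays. The log2 ratios of miR-143 and miR-145 were -0.194 and -0.547, and -0.785 and -1.139 with the control features aligned. miR-126 had signals of 587 on the injured array and 592 on the uninjured array, and miR-126* had 27.8 against 34.5. Their log2 ratios were 0.078 and -0.222, and -0.513 and -0.813 with the control features aligned. The erythroid miR-451 and miR-144 summed to 124.6 on the injured array, against 677 on the uninjured array. The part of leukocytes, nerve and blood in the signals of miR-132 and miR-212 was not tested.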

How the data were processed

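Total RNA of rat carotid artery was labelled with Cy3 and hybridised to 1-colour miRNA arrays, per the labels' protocols. Each deposited array file holds 1 signal intensity, on a linear scale, and 1 flag for each of 350 miRNAs and 22 control features. No label or file header names the scanner software, background subtraction or normalization. A signal of exactly 1 was listed for 109 miRNAs per array. It is not the lowest value, since 24 miRNAs on the injured and 27 on the uninjured array were listed under 1. The deposited value table holds a ratio, which for 349 of 349 shared names equalled the injured over the uninjured intensity (relative tolerance 1e-05).

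With Python 3.11.15, pandas 2.3.3 and numpy 2.4.6, a miRNA was called measured where its flag was 1 (184 on the injured and 166 on the uninjured array). The arrays' log2 intensities were aligned at the 75th percentile of the 158 miRNAs that both measured (377 on the injured and 401 on the uninjured array). A miRNA measured on 1 array got a bound: the bright signal over the higher of the other array's lowest detected signal and its own dim signal. Where this was not above 1-fold, as for 7 of the 26 measured only on the injured array, no bound is given. With 1 array per group no test was made, and p-values are not given. The scaling and the 2-fold threshold were tested on simulated data without noise, for miRNAs measured on both arrays only. The rule for bounds was not tested in this way. Named miRNAs are both members, the 5 nearest of the same detection pattern for each, seed relatives, miRNA neighbours within 1 Mb in RefSeq, and 7 lists (growth factor or injury, CREB or activity, nerve, leukocyte, smooth muscle, endothelial, erythroid). The members and lists were chosen with earlier results of these data known. Mature and hairpin sequences came from RefSeq (GRCr8). Mature sequences were found for both members, and a hairpin sequence for Mir132 but not for Mir212.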

Additional observations from a re-analysis of the deposited data

How the results depend on the processing

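No paired analysis was possible because each group held 1 array. The bound of miR-132 stayed above 0 in every setting run. Its log2 value, 2.46 as reported, was 2.37 without scaling, 1.96 at the 75th percentile of all miRNAs, 2.02 at the medians, 2.26 with quantile normalization and 1.87 at the control features, and 1.10 against the highest undetected signal. With both choices changed, an alternative added after seeing the data, it was 1.01, 0.60, 0.65, 0.71 and 0.505 in the same order of scalings. Bounds not above 0 are left out by construction, so a positive sign adds no support. The deposited ratio gave 4.645 for miR-132 and 0.33 for miR-212. The log2 ratio of miR-212 was 0.33, -0.083, -0.029, 0.067 and -0.176 in that order. The gap between the members was 2.05, 2.19 with quantile normalization and 0.68 against the highest undetected signal. The miRNAs at least 2-fold higher numbered 20 as reported, and 7, 8, 12 and 7 at the 75th percentile of all, the medians, quantile normalization and the control features. Those at least 2-fold lower numbered 6, against 20, 16, 11 and 23. With detection set by a signal above the highest undetected one, 22 in place of 26 were measured only on the injured array, miR-132 included, and 4 in place of 8 only on the uninjured array. Of 43 other named miRNAs, 10 had the other sign in at least 1 setting, none of them beyond 0.588 on the log2 scale as reported. Those of the 43 given as a bound could not change sign, because a bound not above 1-fold is left out. That happened to miR-322* and miR-129* against the highest undetected signal. Dim signals limit the miR-132 bound, and 1 array per group leaves the spread between animals unknown.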
